A study of Mus musculus with 2 samples.

Results

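The angiogenic ligands and receptors described here are 10 genes, Vegfa, Pgf, Angpt2, Dll4 and Pdgfb on the side of the ligands and Kdr, Flt1, Flt4, Tek and Pdgfrb on the side of the receptors, out of 32285 genes counted. They were chosen by name, for their roles in the growth of blood vessels, and all 10 had UMIs (unique molecular identifiers, each standing for 1 captured RNA molecule) in the cells kept. The tumors were subcutaneous grafts of SO, a syngeneic mouse ovarian cancer line that lacks p53 and carries myc and H-ras, grown in the flanks of female C57BL/6 mice aged 6 to 8 weeks. In 1 library the hosts were WT mice, and in the other they were TSK (tight skin) mice, heterozygous for an internal duplication in Fbn1, the gene of the matrix protein fibrillin-1. Each library held the dissociated tumors of 4 mice pooled, prepared without selecting cell types and read from the 3′ end of transcripts. With 1 library per genotype, the genotype, the library and its batch cannot be told apart, so no test between WT and TSK was possible. The intervals given are exact 95% intervals of counting error alone, and they say nothing of the spread between mice.

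The WT library held 2332 barcodes with 21225411 UMIs and the TSK library 4436 barcodes with 48296765 UMIs. A total of 263 barcodes were found in both libraries, and those that passed the filter, 251 in WT and 255 in TSK, were left out. Kept were 1442 WT cells with a median of 7658.5 UMIs and 2961 TSK cells with a median of 7302. Each cell was given a lineage from the raw UMIs of 10 marker genes per lineage, none of which is among the 10 genes described. This gave 71 endothelial-like cells in WT and 70 in TSK, 14 and 41 mural-like cells (pericytes and smooth muscle), 168 and 277 fibroblast-like cells, 101 and 1148 cancer-like cells, 377 and 506 macrophage-like cells, 50 and 217 neutrophil-like cells, and 511 and 344 T/NK-like cells. The endothelial, mural and fibroblast lists each had 10 of 10 markers with UMIs in at least 10% of their own cells, and no marker of these lists was at 0. The cancer list had 7 of 10. Since the same lists named the cells, such detection was largely set in advance. The share of a list's UMIs that fell in its own lineage was 52.9% for endothelial and 36.5% for mural markers. It was 87.3% for fibroblast and 89.3% for cancer markers. The mural-like label holds less firmly, because these cells carried the fibroblast list at 11174 CPM (counts of UMIs per 1000000 UMIs of the same cells) in WT and 7505 in TSK, against 4458 and 3543 of their own list. The cancer-like share of all UMIs was 19.0% in WT and 71.7% in TSK, and UMIs of the cancer list were also more frequent in other TSK lineages, at 85.0 CPM in WT and 684 in TSK endothelial-like cells, 446 and 834 in fibroblast-like cells and 79.6 and 457 in macrophage-like cells. The part of this difference in the results below was not tested.

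New vessels grow when endothelial cells meet the growth factor VEGF-A, which is released by cells short of oxygen and read mainly by VEGFR2, the product of Kdr. VEGFR1, the product of Flt1, binds VEGF-A and the placental growth factor Pgf tightly and signals weakly, so that it also acts as a sink, while VEGFR3, the product of Flt4, binds VEGF-C and marks lymphatic and sprouting vessels. Leading tip cells of a sprout show the Notch ligand Dll4 and release Angpt2, which competes with Angpt1 for the receptor Tie2, the product of Tek. Endothelial Pdgfb then draws in pericytes through their receptor Pdgfrb. Counts from 3′ ends cannot tell the isoforms of Vegfa apart, nor soluble from membrane-bound Flt1, and levels are compared here between cells for 1 gene and not between genes.

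The 250 bases before the start site are shown for the main ligand and its 2 receptors, since these carry the results below: Vegfa (chr17:46032378-46032627), Kdr (chr5:75978456-75978705) and Flt1 (chr5:147726012-147726261), each on the minus strand, from RefSeq on GRCm38.p6. Capitals mark a match to the core of an ETS site (CCGGAA or its complement TTCCGG), the family of factors known in endothelial genes. The core of the hypoxia response element (ACGTG or CACGT), bound by the oxygen-sensing factor HIF, was also sought and is in none of these 3 windows, while the window of a second Vegfa start site held 1 match.
Vegfa: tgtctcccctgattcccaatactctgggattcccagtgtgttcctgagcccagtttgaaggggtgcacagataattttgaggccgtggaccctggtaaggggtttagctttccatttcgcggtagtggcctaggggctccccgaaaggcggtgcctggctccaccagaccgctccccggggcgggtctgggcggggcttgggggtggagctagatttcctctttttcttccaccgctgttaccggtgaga
Kdr: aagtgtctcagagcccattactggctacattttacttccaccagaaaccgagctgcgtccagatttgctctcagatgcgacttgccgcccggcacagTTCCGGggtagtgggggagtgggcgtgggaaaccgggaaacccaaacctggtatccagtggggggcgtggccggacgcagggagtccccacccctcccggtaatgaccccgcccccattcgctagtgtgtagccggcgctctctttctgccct
Flt1: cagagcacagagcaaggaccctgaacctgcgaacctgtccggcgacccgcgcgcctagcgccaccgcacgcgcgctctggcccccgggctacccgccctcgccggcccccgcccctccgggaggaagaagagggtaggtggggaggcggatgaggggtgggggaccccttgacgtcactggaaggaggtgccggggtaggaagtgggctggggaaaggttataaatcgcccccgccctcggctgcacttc
Among the 32851 windows of the same length in the table, 12% held the ETS letters and 16.6% the hypoxia letters. The share of G and C was 59.2% for Vegfa, 61.6% for Kdr and 70.4% for Flt1, against a median of 52.4% over the table. A match describes letters alone, and nothing about binding follows from its presence or absence in a window this short. Of the 10 genes, 7 had an entry in the table.

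Positions of the genes are those of the mouse genome GRCm38 with the GENCODE M21 annotation. Vegfa is at chr17:46016993-46032369, Pgf at chr12:85166635-85177790, Kdr at chr5:75932827-75978458 and Flt1 at chr5:147561604-147726011. Flt4 is at chr11:49609263-49652739, Tek at chr4:94739289-94874976, Angpt2 at chr8:18690263-18741562, Dll4 at chr2:119325784-119335962 and Pdgfb at chr15:79995874-80014977, while Pdgfrb is on chromosome 18. Angpt2, Dll4 and Pdgfb each overlap a gene on the opposite strand (Mcph1, Gm14207 and Gm41361), and Pdgfb also overlaps the microRNA gene Mir7213 on its own strand.

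Vegfa and its receptor Kdr were counted mostly in different lineages, while Dll4 and Angpt2 shared the endothelial-like cells with Kdr. Of 10883 Vegfa UMIs, 61.8% were in cancer-like cells, 21% in macrophage-like and 10.9% in fibroblast-like cells, and 0.349% in endothelial-like cells. The receptor gene Kdr and the tip-cell ligand gene Dll4 were the reverse, with 87.7% of 740 and 91.8% of 319 UMIs in endothelial-like cells, which held 3.13% of all UMIs. Flt4 had 68.7% of its 182 UMIs there, at 82.3% in WT and 61.7% in TSK. Angpt2 had 55.7% of 988, at 77.3% in WT but 44.4% in TSK, where cancer-like cells held 43.0%. The other members were shared among lineages. Tek was split between fibroblast-like (52.0% of 467 UMIs) and endothelial-like cells (34.5%), Flt1 between endothelial-like (38.5% of 8670) and cancer-like cells (35.8%), and Pdgfrb among cancer-like (31.3% of 2045), fibroblast-like (27.9%) and mural-like cells (24.6%). Pdgfb had 59.1% of its 2692 UMIs in cancer-like cells and 18.6% in endothelial-like cells, and Pgf 28.1% of its 743 UMIs in cancer-like, 21.1% in endothelial-like and 20.3% in fibroblast-like cells. Since cancer-like cells held 57.3% of all UMIs, shares of 57.3% or less there do not mark a gene as enriched in them. That pooled share mixes 19.0% of all UMIs in WT with 71.7% in TSK. Within the libraries, cancer-like cells held 18.9% of Pdgfb UMIs in WT and 71.6% in TSK, no more than their share of all UMIs. For Vegfa they held 32.7% in WT, above that share, and 71.8% in TSK, level with it.

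**Figure D1:**
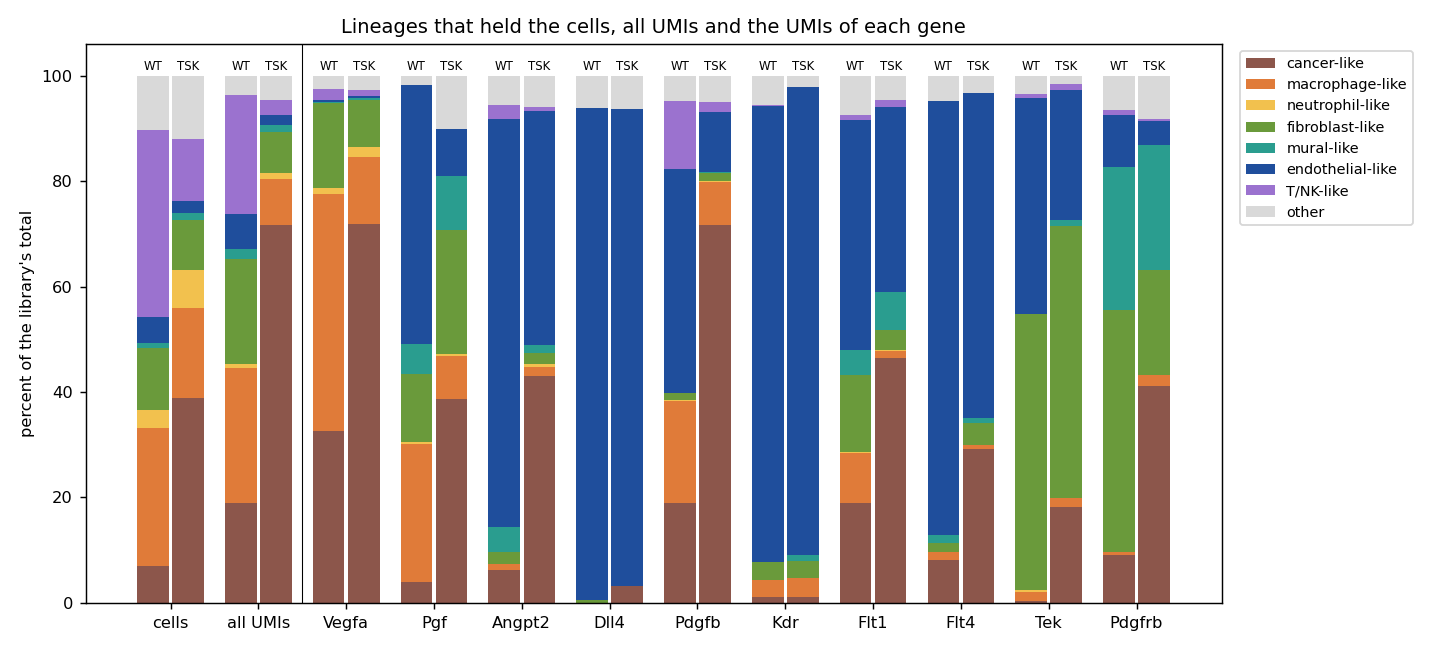
Percent of the cells, of all UMIs and of the UMIs of each gene that fell in each lineage, with 1 bar for the WT and 1 for the TSK library. Endothelial-like cells (dark blue) held over 80% of Kdr and Dll4 UMIs in both libraries, while the cancer-like share (brown) of Vegfa was 32.7% in WT and 71.8% in TSK, beside 19.0% and 71.7% of all UMIs.

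In WT, Vegfa was at 286 CPM in macrophage-like, 280 in cancer-like, 244 in neutrophil-like and 132 in fibroblast-like cells. In TSK it was at 262 in macrophage-like, 255 in neutrophil-like, 208 in fibroblast-like and 178 in cancer-like cells. The order of these sources thus differed between the libraries, and both endothelial-like and mural-like cells were under 50 in each. Macrophage-like cells held the larger share of Vegfa UMIs in WT (44.8%, against 32.7% in cancer-like cells) and cancer-like cells in TSK (71.8%, against 12.7%). The levels of the other genes that follow are over both libraries, of which TSK gave most of the cancer-like UMIs. Pgf was at 79.8 CPM in endothelial-like and 70.2 in mural-like cells and at 5.81 in cancer-like cells. Angpt2 was at 280 and Dll4 at 149 in endothelial-like cells, against 8.34 for Angpt2 in cancer-like cells. For Pdgfb the endothelial-like level was 255, above the 44.3 of cancer-like and the 35.3 of macrophage-like cells. These 3 ligands of sprouting vessels had their highest level per UMI in the endothelial-like cells themselves.

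Among the receptors, Flt1 was at 1695 CPM in endothelial-like and 575 in mural-like cells, and at 99.6, 86.2 and 47.6 in fibroblast-like, cancer-like and macrophage-like cells. Kdr was at 330 and Flt4 at 63.6 in endothelial-like cells. Tek was at 81.9 in endothelial-like and 35.1 in fibroblast-like cells. Pdgfrb was at 536 in mural-like, 82.3 in fibroblast-like, 64.1 in endothelial-like and 17.8 in cancer-like cells. Flt1 was higher in cancer-like than in fibroblast-like cells within each library, though not over both libraries, since the TSK library with its lower level gave most of the cancer-like UMIs.

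**Figure D2:**
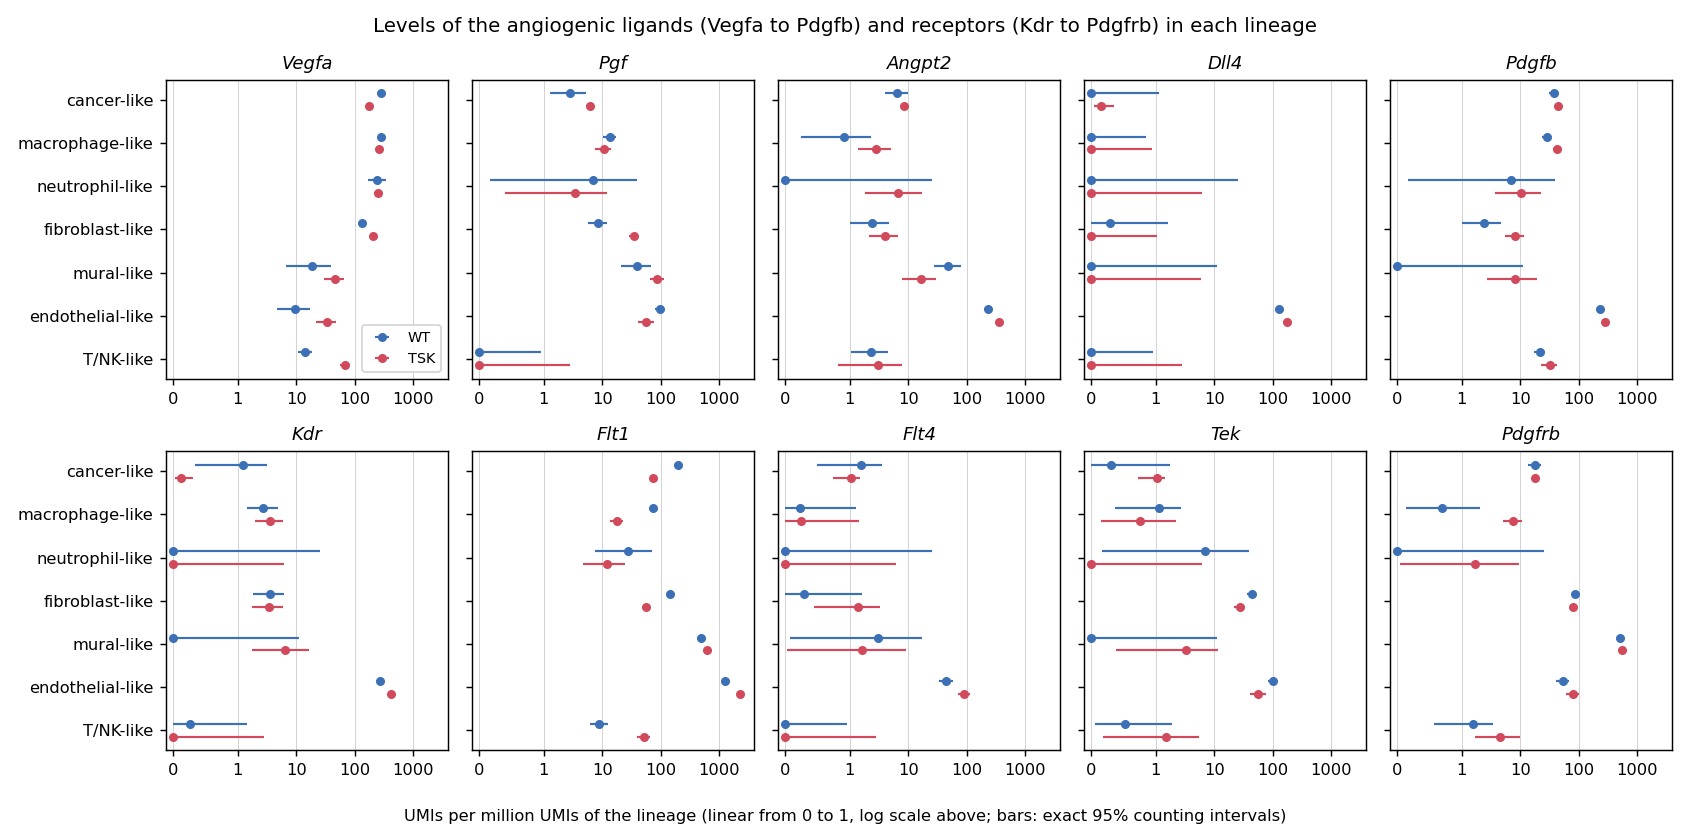
CPM for each of the 10 genes (log scale above 1) in 7 lineages, in WT (blue) and TSK (red), with exact 95% counting intervals as bars. Vegfa sat above 100 in 4 source lineages and under 50 in mural-like and endothelial-like cells, while Kdr and Dll4 were above 100 in endothelial-like cells and under 10 in the other 6.

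To set libraries of unequal depth side by side, each cell was also thinned to 1000 UMIs. A Kdr UMI was then found in 21.7% of 69 endothelial-like cells in WT and 33.3% of 66 in TSK, against 0 of 368 and 1 of 472 macrophage-like cells (unthinned, 57 of 71 and 60 of 70 against 7 of 377 and 11 of 506). For Dll4 the thinned shares were 11.6% and 19.7% of endothelial-like cells, with none in macrophage-like or T/NK-like cells of either library, whose unthinned counts were also 0. The T/NK-like cells, which should lack endothelial genes, had median depths of 6794 UMIs in WT and 2829 in TSK, beside 11755 and 8892 in the endothelial-like cells. Within endothelial-like cells the genes were found together with Kdr, since a Kdr UMI was present in 35 of 36 cells with Dll4 in WT and in 50 of 53 in TSK, and in 28 of 29 and 54 of 59 cells with Angpt2. Cells deep enough to show 1 gene are also those most likely to show another.

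The genotypes were then compared within each lineage, counting a gene as different when its CPM differed at least 2-fold and it had at least 20 UMIs in the lineage over both libraries. Over all kept cells, where the makeup of the library also enters the level, 3 of the 10 genes were at least 2-fold higher in WT. In TSK it was 0, beside 18.4% and 19.9% of the 17322 genes compared. The 3 were Kdr (21.2 CPM in WT and 8.28 in TSK), Dll4 (9.43 and 3.46) and Tek (16.5 and 4.07). In this pooled view fewer cells of a lineage and less RNA per cell cannot be told apart, and levels within lineages follow below. Endothelial-like cells were 4.92% of cells in WT (95% interval 3.87 to 6.17) and 2.36% in TSK (1.85 to 2.98). They held 6.75% of all UMIs in WT and 1.78% in TSK. Fibroblast-like cells, which had most of the Tek UMIs, held 19.8% and 7.77%. Under the study's own upper limits of 10000 UMIs and 10000 genes per cell, which leave 920 WT and 1701 TSK cells, the pooled differences of Kdr, Dll4 and Tek turned to log2 values of 0.059, 1.12 and 0.58. Keeping the barcodes found in both libraries moved the pooled Pgf difference from -0.23 to -1.31.

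Within endothelial-like cells 2 of 10 genes were at least 2-fold higher in TSK, beside 17.5% of 8286 genes, and 0 in WT, beside 6.73%. The median log2 difference was 0.60 over the 10 genes and 0.32 over the 8286. Flt4 was the receptor past 2-fold, at 44.3 CPM in WT and 90.9 in TSK (log2 1.04, 95% interval 0.50 to 1.58). Its log2 fell under 2-fold, to 0.72, when the ratio was taken against the median gene of the lineage. Without cells that had markers of a second lineage it was 0.68. The other gene was Vegfa, at 9.55 and 33.2 on 11 and 27 UMIs. Of these 27 UMIs, 9 were in 1 cell, and with the shared barcodes kept Vegfa was at 36.1 in WT and 33.1 in TSK.

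Flt1, the decoy receptor, was at 1279 CPM in WT and 2285 in TSK endothelial-like cells (log2 0.84, 0.74 to 0.94). Its median per cell was 9.92 and 15.5 UMIs per 10000, with quartiles of 4.12 to 17.8 in WT and 6.36 to 27.9 in TSK, so the cells of the 2 libraries overlapped widely. Kdr was at 272 and 413 (log2 0.60, 0.38 to 0.83), but this was 0.11 under the study's upper limits and 0.28 when the ratio was taken against the median gene of the lineage. Tek went the other way, from 99.8 to 56.5 CPM (log2 -0.82, -1.35 to -0.32), and was detected in 46 of 71 and 25 of 70 cells. Leaving out the cell with most UMIs in each library left Flt1 at 0.79, Kdr at 0.61, Flt4 at 1.19 and Tek at -0.80.

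Of the endothelial ligands, Angpt2 was found in 29 of 71 WT and 59 of 70 TSK cells, a wider difference than in its level, which was 227 CPM in WT and 354 in TSK (log2 0.64, 0.39 to 0.89). A single WT cell held 61 of the 262 WT UMIs, and the log2 difference was 0.83 without the top cell of each library and 1.63 when each cell counted equally. After thinning, Angpt2 was in 13% of WT and 27.3% of TSK cells. Dll4 was at 130 and 176 (log2 0.43, 0.09 to 0.77), with UMIs in 36 of 71 and 53 of 70 cells. Pdgfb was at 234 and 285 (log2 0.28, 0.02 to 0.54), and its sign turned, to -0.038, when set against the median gene of the lineage. Pgf was lower in TSK, at 96.3 and 56.5 (log2 -0.77, -1.30 to -0.26), from 15 cells with 111 UMIs and 14 cells with 46 UMIs. Pgf turned to a log2 of 1.08 under the study's upper limits, and the cause was not tested.

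**Figure D3:**
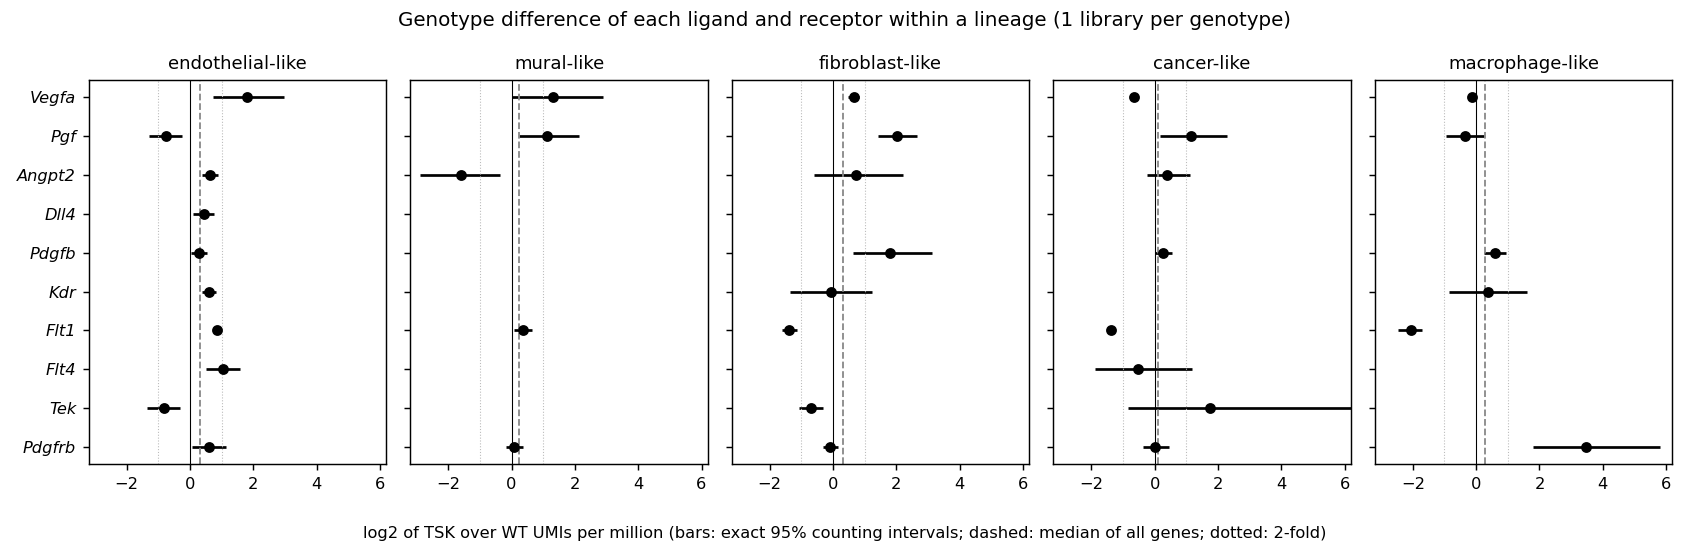
Log2 of the TSK level over the WT level of each gene in 5 lineages, where genes with under 20 UMIs have no point, with exact 95% counting intervals as bars, the median of all genes dashed and 2-fold dotted. The Tek bar in cancer-like cells runs past the right edge. Flt1 sat above 0 in endothelial-like (0.84) and mural-like cells (0.36) and below -1 in fibroblast-like, cancer-like and macrophage-like cells.

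Endothelial-like cells were also divided by a UMI of Esm1 or Apln, genes known from tip cells. Such cells were 21 of 71 in WT and 56 of 70 in TSK, with median depths of 25132 and 8628 UMIs. Inside this class the tip-cell ligands were at like levels in both libraries. Angpt2 was at 423.0 CPM in WT and 422.6 in TSK, Dll4 at 200 and 191, and Pdgfb at 365 and 306. Flt1 and Kdr still differed there, at 1071 and 2462 for Flt1 and at 219 and 464 for Kdr. So did Flt4, at 54.9 and 103, and the ligand Pgf in the other direction, at 188 and 59.7. Among the remaining 50 WT and 14 TSK cells, Flt1 was at 1479 and 1565 and Kdr at 322 and 205. Outside the class the Flt1 intervals overlapped (1383 to 1581 in WT and 1378 to 1771 in TSK). Tek was lower in the Esm1 or Apln cells than in the rest in both libraries, at 67.2 against 131 in WT and 44.4 against 106 in TSK. Because the WT cells of the class were much deeper, the class is not the same cut of cells in the 2 libraries.

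Some endothelial-like cells carried mural markers, and Pdgfrb followed them. With at least 2 mural markers (30 of 71 WT and 43 of 70 TSK cells), Pdgfrb was at 97.8 and 104 CPM, and in the other endothelial-like cells it was at 0 and 9.52. Flt1 was higher in TSK in both sets, at 1533 and 2499 with mural markers and at 980 and 1671 without. Kdr was at 292 and 454 with mural markers and at 248 and 295 without. Of the lymphatic markers listed, counts are given for Prox1, Mmrn1, Reln and Flrt2, and not for Ccl21a. Prox1, Mmrn1 and Reln were sparse, with 3, 1 and 5 UMIs in WT and 1, 0 and 1 in TSK. Flrt2 had most of the marker UMIs, with 11 in WT and 23 in TSK. A lymphatic marker UMI was in 12 WT and 9 TSK cells, of which 6 and 7 had Flrt2. Median depths of the cells with a marker UMI were 26697.5 and 22835 UMIs, beside 11755 and 8892 over all endothelial-like cells. Flt4 was at 62.6 in these WT cells and 25.5 in these TSK cells, on 21 and 5 UMIs. Most Flt4 UMIs were thus in cells without such a marker UMI. Whether the cells with a marker UMI were lymphatic was not tested.

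In mural-like cells the PDGF receptor was level between the libraries. Pdgfrb was at 516 CPM in WT and 546 in TSK (log2 0.08, -0.19 to 0.36), and was found in 11 of 14 and 38 of 41 cells. Flt1 was at 485 and 623 (log2 0.36, 0.09 to 0.64), and 9 of 11 WT cells and 35 of 38 TSK cells with Pdgfrb also had Flt1. Of the 5 genes with enough UMIs, 2 were at least 2-fold higher in TSK, beside 13.7% of genes, and 1 in WT, beside 7.12%. These were Pgf at 39.7 and 86.4 (13 and 53 UMIs), Vegfa at 18.3 and 45.7 (6 and 28 UMIs, 17 of the 28 in 1 cell) and Angpt2 at 48.8 and 16.3 (16 and 10 UMIs). The 14 WT cells bound all of these values. A total of 5 WT and 14 TSK mural-like cells were left when cells with markers of a second lineage were taken out, with Pdgfrb then at 666 and 670.

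In fibroblast-like cells Pgf and Pdgfb were past 2-fold in TSK and Flt1 in WT, while Vegfa was under 2-fold. Vegfa was at 132 CPM in WT and 208 in TSK (log2 0.65, 0.48 to 0.82), found in 89 of 168 and 154 of 277 cells, and in 11.6% and 14% of cells after thinning. Pgf was at 8.58 and 34.4 (log2 2.0, 1.41 to 2.64), from 12 and 26 cells. Pdgfb was at 2.37 and 8.18, on 8 and 29 UMIs. Pgf and Pdgfb were 2 genes out of 8 with enough UMIs, beside 16.9% of 11521 genes. The 1 gene past 2-fold in WT, beside 4.82%, was Flt1, at 146 and 55.8 (log2 -1.38, -1.63 to -1.14). The endothelial marker list was also lower in these TSK cells, at 328 CPM in WT and 213 in TSK, and its part was not tested. Without cells that had markers of a second lineage, Flt1 was at 125 and 27.4 (log2 -2.19) and Pgf at 4.24 and 38.3 (log2 3.18).

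Tek was found in fibroblast-like cells at 43.5 CPM in WT and 27.1 in TSK (log2 -0.68, -1.07 to -0.30). This difference was -0.32 (-0.72 to 0.06) without cells that had markers of a second lineage, and it turned to 0.79 (-0.38 to 2.19) under the study's upper limits. Leaving out second-lineage cells did not lower the Tek level itself, which was then 46.9 and 37.5. Tek UMIs were in 36 of 98 WT and 20 of 111 TSK fibroblast-like cells with Pdgfrb. Pdgfrb itself was at 84.9 and 79.8 (log2 -0.09, -0.33 to 0.15). In counting error alone, its interval lies inside a 2-fold difference either way.

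In cancer-like cells, the bulk of the TSK library, Vegfa was under 2-fold different and Flt1 past 2-fold in WT. Vegfa was at 280 CPM in WT and 178 in TSK (log2 -0.66, -0.76 to -0.55), found in 70 of 101 and 717 of 1148 cells, and in 19.2% and 13.1% after thinning. A total of 92 of the 908 WT UMIs were in 1 cell, and without the top cell of each library the difference was -0.56. Under the study's upper limits, which keep 25 WT and 282 TSK cancer-like cells, Vegfa turned to 166 and 210 (log2 0.34, -0.41 to 1.2). Flt1 was at 197 and 75.2 (log2 -1.39, -1.51 to -1.26) and turned likewise, to 55.3 and 88.6 (log2 0.68, -0.58 to 2.33) on 5 and 120 UMIs. Neither direction was thus seen in the cells that the study's limits keep, where both counting intervals included 0.

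Clusters of all kept cells were also made and named by the same marker lists. Those named cancer-like held 177 WT and 1412 TSK cells, with the libraries in unlike proportions. Each cluster counts all its cells, whatever lineage the marker counts gave them. Cluster 5 held 62 WT and 393 TSK cells, with Vegfa at 346 CPM in WT and 350 in TSK and Flt1 at 233 and 170. Cluster 4 held 8 WT and 453 TSK cells, with Vegfa at 55.9 and 77.8 and Flt1 at 68.3 and 20.1. Cluster 10 held 4 WT and 180 TSK cells, with Vegfa at 53.9 and 81.9. Within each of these clusters Vegfa was no lower in TSK, unlike over all clusters named cancer-like (log2 -0.66). Flt1 was lower in TSK in clusters 5 and 4 but not in cluster 10, where WT had 0 UMIs. The shallow cluster 3, of 103 WT and 386 TSK cells with median depths of 860 and 1990 UMIs, had Vegfa at 68.2 and 114.

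Without thinning, Vegfa was found in 39 of 44 WT cancer-like cells with Flt1 (88.6%, against 69.3% of all) and in 272 of 336 TSK cells (81.0%, against 62.5%). Deeper cells are more likely to show both genes, and the part of depth was not tested. Flt1 was the 1 gene of the 8 with enough UMIs past 2-fold in WT, beside 10.0% of 14776 genes, and 2 were past it in TSK, beside 11.5%. The latter were Pgf at 2.78 and 6.11 on 9 and 200 UMIs, of which 7 of the 9 were in 1 cell, and Tek at 0.309 and 1.04 on 1 and 34 UMIs. Pgf turned to a log2 of -0.37 when each cell counted equally. Pdgfb was at 37.0 and 45.0 (log2 0.28, 0.01 to 0.56), Pdgfrb at 17.6 and 17.8 (log2 0.02, -0.37 to 0.44) and Angpt2 at 6.48 and 8.52 (log2 0.40, -0.24 to 1.11). Counting intervals of the last 2 include no difference.

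Proliferation moved with these values, as a UMI of the cell-cycle genes Mki67 or Top2a was in 51.5% of WT and 79.7% of TSK cancer-like cells. Median depths were 47145 UMIs with and 21247 without such a UMI in WT, and 31694 and 9776 in TSK, so depth sorts these classes too. In cells with such a UMI Vegfa was at 196 and 161 CPM, and in cells without at 446 and 326. Flt1 was at 201 and 68.1 with and at 189 and 141 without. Pdgfb ran the other way, at 51.1 and 47.2 with and at 9.20 and 24.9 without. Vegfa was thus lower in cells with such a UMI within each library, and lower in TSK within each class, which the clusters above did not show.

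Macrophage-like cells carried Vegfa at 286 CPM in WT and 262 in TSK (log2 -0.13, -0.25 to -0.01), a difference that turned to 0.040 without cells that had markers of a second lineage and to 0.011 with clusters in place of marker counts. Cells with a UMI of Arg1, the arginase of tissue-repair macrophages, had 416 in WT and 361 in TSK, and those without, leaving out cells with resident markers, 81.2 and 77.5. Flt1, which monocytes and macrophages use as their VEGF receptor, was at 74.6 and 17.7 (log2 -2.07, -2.46 to -1.69). The endothelial marker list in these cells was at 186 CPM in WT and 86.2 in TSK, and its part was not tested. Flt1 was found in 103 of 377 and 42 of 506 cells, and in 5.16% and 1.06% after thinning. Flt1 was lower in TSK with Arg1 (89.1 and 22.1) and without (54.8 and 12.9), and it stayed so under the study's upper limits (63.6 and 15.1, log2 -2.08). It was the 1 gene of 6 past 2-fold in WT, beside 3.55% of 11129 genes.

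Past 2-fold in TSK in these cells, beside 14.4%, was 1 gene of 6, Pdgfrb, at 0.688 and 7.61 CPM on 3 and 30 UMIs. Leaving out cells with markers of a second lineage took 20 of the 30 UMIs away. Pdgfb was at 28.4 and 42.8 (log2 0.59, 0.25 to 0.94) and Pgf at 13.5 and 10.6 (log2 -0.35, -0.95 to 0.25). Neutrophil-like cells held Vegfa at 244 in WT and 255 in TSK (log2 0.07, -0.47 to 0.64), on 35 and 150 UMIs.

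In T/NK-like cells 2 of the 3 genes with enough UMIs were past 2-fold in TSK, beside 15.3% of 9973 genes, and 0 in WT, beside 3.56%. Vegfa was at 14.1 and 68.5 CPM and Flt1 at 8.85 and 51.2. Of the 68 Flt1 UMIs in TSK, 58 were in 1 cell, as were 39 of the 91 Vegfa UMIs. Without cells that had markers of a second lineage, Flt1 was at 2.98 and 3.79, and the thinned share of cells with Vegfa was 1.76% in WT and 1.83% in TSK. Without the top cell of each library Flt1 was at a log2 of 0.82 (-0.47 to 2.03), while Vegfa stayed past 2-fold at 12.5 and 41.4 (log2 1.72, 1.13 to 2.32). In the clusters named T/NK-like the Vegfa difference was smaller. It was at 8.19 and 17.0 CPM in cluster 2, 19.6 and 25.4 in cluster 8 and 30.5 and 49.9 in cluster 12. The TSK values there rest on 11, 7 and 6 UMIs. The cancer marker list in T/NK-like cells was at 139 CPM in WT and 529 in TSK, and its part was not tested. Pdgfb was at 21.3 and 31.6 (log2 0.57, -0.01 to 1.12), from 55 and 28 cells.

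Among 46 other genes of the pathway, listed by role, hypoxia-response genes were the class with the highest share past 2-fold in endothelial-like and fibroblast-like cells. In endothelial-like cells 5 of 7 tested were at least 2-fold higher in TSK, among them the glycolytic Pgk1 (105 and 371 CPM), the prolyl hydroxylase Egln3 (6.94 and 52.8) and the glucose transporter Slc2a1 (40.8 and 94.6). In fibroblast-like cells it was 6 of 7, with Pgk1 at 142 and 433, and in mural-like cells 3 of 6. In cancer-like cells it was 0 of 8, with a median log2 of -0.26. Cancer-like cells held 76.7% of all Pgk1 UMIs. UMIs of cancer markers were also more frequent in TSK endothelial-like and fibroblast-like cells, and their part in these differences was not tested. Over the whole list, 10 of 39 tested genes were past 2-fold in TSK and 2 in WT in endothelial-like cells, 9 and 1 of 37 in fibroblast-like cells, 8 and 0 of 28 in macrophage-like cells, and 2 and 7 of 39 in cancer-like cells. Over all genes the shares in TSK and WT were 17.5% and 6.73% in endothelial-like, 16.9% and 4.82% in fibroblast-like, 14.4% and 3.55% in macrophage-like, and 11.5% and 10.0% in cancer-like cells.

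In endothelial-like cells the tip-cell gene Esm1 was at 64.2 CPM in WT and 421 in TSK (log2 2.71), Vegfc, the ligand of Flt4, at 50.3 and 107, and the apelin gene Apln at 122 and 246. The chemokine Cxcl12 was lower in TSK, at 331 and 104 in endothelial-like and at 754 and 310 in fibroblast-like cells. Cancer-like cells had 6 of 15 ligands past 2-fold in WT, beside 10.0% of all genes, among them Vegfc (43.8 and 10.1), Pdgfa (102 and 26.5), Pdgfc (15.7 and 4.64) and Angptl4 (21.3 and 7.58). Vegfc thus pointed in opposite directions in endothelial-like and cancer-like cells, which was not tested. The co-receptors Nrp1 and Nrp2 were at 366 and 393 and at 159 and 155 in endothelial-like cells. Tie1, the partner of Tie2, was at 164 and 131 there. Adm, the vessel-active peptide adrenomedullin, was at 3.44 and 36.5 in macrophage-like cells.

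The hypoxia-response genes were then used to rank the cells of each lineage in each library by the UMIs of 8 such genes per UMI, and the ranks were cut into 3 equal groups. The groups are ranges of a score and not types of cell, and 233 of 1148 TSK cancer-like cells lay within 10% of a cut. Vegfa was higher in the highest group than in the lowest in each of the 4 source lineages and in both libraries. In cancer-like cells it was at 56.6, 117 and 626 CPM from the lowest to the highest group in WT and at 39.7, 95.8 and 396 in TSK. In macrophage-like cells it was at 67.4, 268 and 475 in WT and at 103, 180 and 452 in TSK. Fibroblast-like cells gave 54.9, 97.4 and 233 in WT and 85.0, 86.7 and 357 in TSK. The middle and lowest groups of TSK fibroblast-like cells did not differ beyond their counting intervals (70.4 to 106 and 66.2 to 107).

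**Figure D4:**
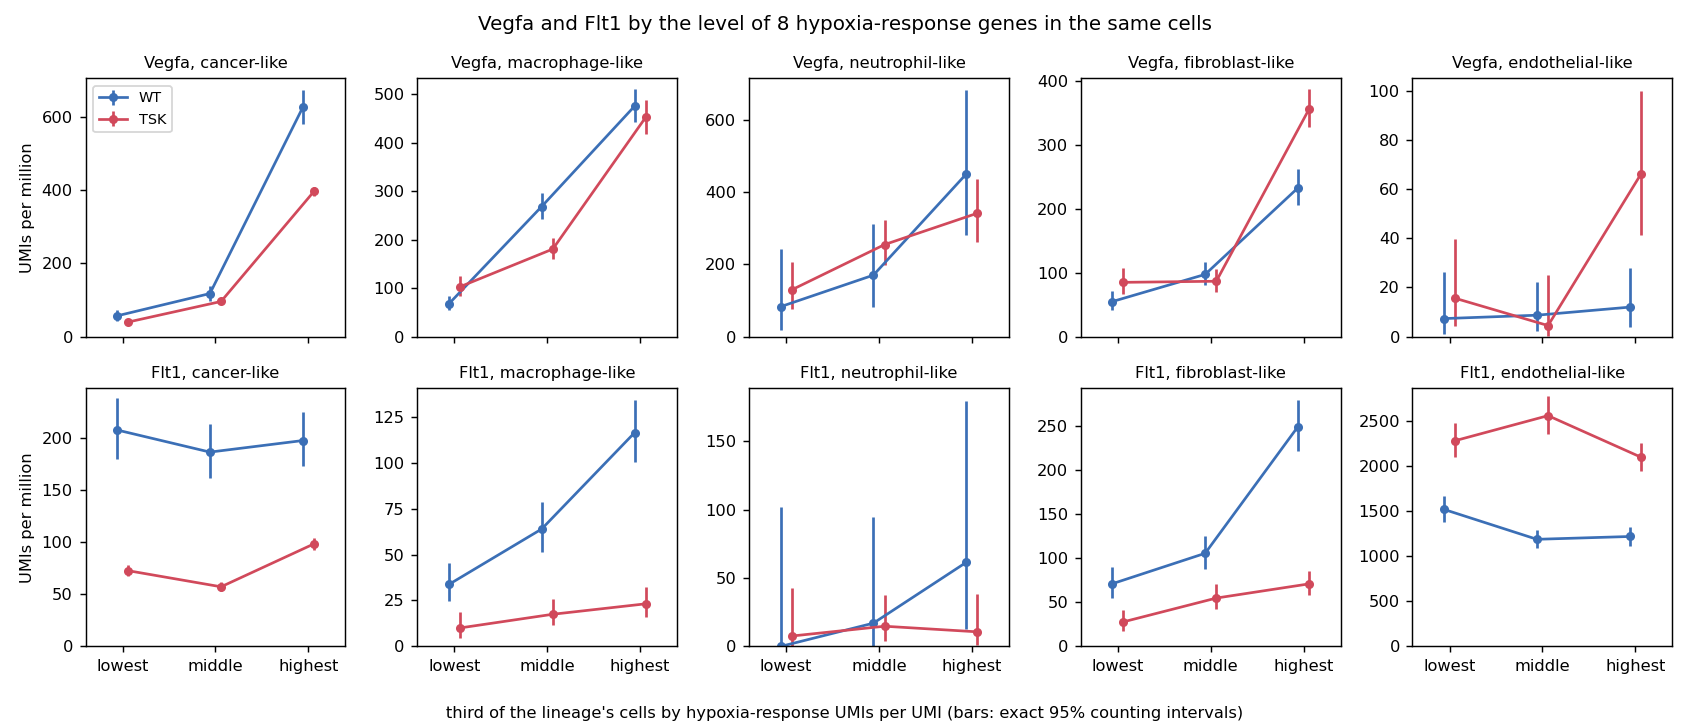
CPM of Vegfa (top) and Flt1 (bottom) in the lowest, middle and highest of 3 equal groups of cells ranked by 8 hypoxia-response genes, in 5 lineages, WT blue and TSK red, with exact 95% counting intervals as bars. Vegfa climbed with the rank in the first 4 lineages, from 39.7 to 396 in TSK cancer-like cells, while Flt1 in endothelial-like cells stayed between 1189 and 1521 in WT and between 2101 and 2561 in TSK.

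Pgf was more concentrated still. The highest group held 181 of the 200 Pgf UMIs of TSK cancer-like cells, 113 of the 122 of TSK fibroblast-like cells, and 48 of 59 and 34 of 42 in WT and TSK macrophage-like cells. In endothelial-like cells it held 64 of 111 in WT and 26 of 46 in TSK. Flt1 climbed with the rank in macrophage-like cells (33.7, 63.9 and 116 CPM in WT, 10.1, 17.5 and 23.2 in TSK) and in fibroblast-like cells (71.1, 106 and 249 in WT, 27.9, 54.9 and 71.0 in TSK), but not in endothelial-like cells. Tek ran against the rank in fibroblast-like cells, at 56.9, 54.0 and 21.3 in WT and at 86.2, 12.4 and 6.93 in TSK. Pdgfb ran against it in cancer-like cells, from 71.0 to 9.53 in WT and from 55.2 to 25.3 in TSK. Depth differed between groups, with medians of 18591 UMIs in the lowest and 26700 in the highest group of TSK cancer-like cells, and its part was not tested.

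Likeness to other genes was measured as Pearson's r of log2(CPM + 1) over the 14 profiles of 7 lineages in 2 libraries, among 15106 genes, as a description. The genes most like Dll4 were Robo4 (r = 0.998), Grrp1 and Clca2, and those most like Kdr were Rasgrp3 (0.98), Aplnr and Ephb1. For Flt4 they were Bcl6b (0.98), Egfl7 and Nr5a2, and for Angpt2 Nr5a2 (0.95), Gm49539 and Egfl7, where Egfl7 is a marker used to name the endothelial-like cells. Pdgfrb was most like B3galt1 (0.98), Nrep and Tcaf1, Tek most like Mgll (0.95), Galnt15 and Unc45b, and Flt1 most like Tnfaip1 (0.93), Dysf and P3h2. Vegfa was most like Rnh1 (0.90), Ptgs2 and Soat1, Pgf most like Myo1c (0.93), Ccdc28b and Myadm, and Pdgfb most like Cd38 (0.90), Ppp1r13b and Lpar6. Between the members, r was 0.93 for Kdr and Dll4 and 0.95 for Flt4 and Dll4, and it was negative for Vegfa with each of the other 9, from -0.14 with Pdgfb to -0.66 with Angpt2. The profiles of a library share its depth, and the lineages are few. Dll4 had 0 UMIs in mural-like, macrophage-like, neutrophil-like and T/NK-like cells of both libraries. Its r values therefore rest mostly on the endothelial-like profiles.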

How the data were processed

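Mouse tumor cells were profiled on the 10x Genomics 3′ platform. The authors deposited raw UMI counts per gene and barcode from Cell Ranger (7.1.0 in the matrix header, 7.1.1 in the submitters' processing notes; build mm10), with no normalization. Kept were barcodes with at least 200 genes, at least 500 UMIs and at most 10% mitochondrial UMIs, found in 1 library only. The study's upper limits of 10000 UMIs and 10000 genes were an alternative, since they leave out most cancer-like cells. Doublets were not called or removed. A cell took the lineage whose list had most distinct markers with a UMI, at least 2 and more than any other list, and was otherwise unassigned (138 WT and 324 TSK cells). UMIs were summed per lineage and library and divided by all UMIs of the lineage, per 1000000 (CPM), with exact Poisson, binomial and conditional intervals (95%). Ratios are TSK over WT. The interval code was tested on simulated data. The named genes are the 10 members, pathway genes at 2-fold or more with at least 20 UMIs, and the 3 genes most like each member. A few pathway genes under 2-fold (Nrp1, Nrp2 and Tie1) and the divisions of lineages by Mki67, Arg1, Esm1 and other markers were chosen after the values were seen. The members, lists and tests were chosen with earlier results of these data known. Alternatives were the study's upper limits, shared barcodes kept, clusters (2000 variable genes, 30 principal components, 20 neighbours, Leiden resolution 1, members left out) in place of marker counts, equal weight for each cell, the median of gene ratios, and leaving out cells whose second list had over 50% as many distinct markers as their own (756 of 4403). Gene identifiers matched GENCODE M21 for 99.8% (32235). The tools were scipy 1.17.1, numpy 2.4.6 and pandas 2.3.3 for the counts and intervals, igraph 0.11.9, leidenalg 0.10.2 and scikit-learn 1.9.0 for the clusters, and matplotlib 3.10.9, under Python 3.11.15.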

Additional observations from a re-analysis of the deposited data

Results flagged for a closer look

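The barcodes found in both libraries were left out of the main values and kept only as an alternative, and they held UMIs of the 10 genes above the 3 that a count of 0 allows. In WT, 251 such cells with 3106376 UMIs in all held 879 UMIs of Flt1, 532 of Vegfa, 335 of Pgf, 293 of Pdgfb, 212 of Angpt2, 192 of Pdgfrb, 107 of Dll4, 96 of Kdr, 59 of Tek and 22 of Flt4. In TSK, 255 such cells with 380072 UMIs held 14 UMIs of Vegfa, 12 of Pdgfb, 11 of Flt1 and 4 of Pdgfrb. Pgf was at 108 CPM in the WT cells left out, against 13.2 in those kept.

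For 3 of the genes the TSK over WT difference took opposite signs in lineages that each held at least 5% of the gene's UMIs, with both counting intervals off 0. The difference between lineages was not tested. Flt1 was at a log2 of 0.84 in endothelial-like and 0.36 in mural-like cells, and at -1.38 in fibroblast-like and -1.39 in cancer-like cells. Vegfa was at 0.65 in fibroblast-like cells and at -0.66 in cancer-like and -0.13 in macrophage-like cells. Pgf was at 1.12 in mural-like, 2.0 in fibroblast-like and 1.14 in cancer-like cells, and at -0.77 in endothelial-like cells.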

How the results depend on the processing

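Of 99 alternative values for 23 results, all log2 differences of TSK over WT, 49 stayed inside the counting interval of the reported value, 36 moved outside it and 14 turned the sign of a value whose interval excluded 0. Values whose interval included 0 also changed sign, namely Pgf over all cells and Pdgfrb in fibroblast-like cells under the study's upper limits, Pdgfrb in fibroblast-like cells with equal weight (0.13), Pdgfrb in mural-like cells with clusters (-0.15) and the median of gene ratios (-0.14), and Vegfa in neutrophil-like cells with clusters (-0.0067), equal weight (-0.13) and the median of gene ratios (-0.088). The cause of these changes was not tested. Under the study's upper limits on UMIs and genes, the values over all cells were 0.059 for Kdr, 0.56 for Flt1, 1.08 for Flt4, 0.58 for Tek, 1.45 for Angpt2, 1.12 for Dll4 and 2.65 for Pdgfrb, each turned, 1.32 for Pgf, from a reported -0.23, and 0.68 for Vegfa and 0.71 for Pdgfb. By lineage these limits turned Vegfa (0.34) and Pgf (-2.90) in cancer-like cells and moved Vegfa in macrophage-like cells to -0.38, Pdgfrb in fibroblast-like cells to 0.44 and, in endothelial-like cells, Kdr to 0.11, Flt1 to 0.60, Tek to -1.59, Angpt2 to 1.85, Dll4 to 1.02 and Pdgfb to 1.13. Pdgfrb in mural-like cells gave no value, with 0 UMIs in WT. With shared barcodes kept, the values over all cells were -1.31 for Pgf, -0.87 for Flt1, -0.95 for Angpt2, -1.95 for Dll4, -0.39 for Pdgfrb and, turned, -0.036 for Pdgfb, and Vegfa was -0.43 in cancer-like and Flt1 0.96 in endothelial-like cells. With equal weight for each cell, Pgf turned in cancer-like cells (-0.37), Vegfa there was -0.51, Pdgfrb in mural-like cells 0.45, and the endothelial-like values were 0.37 for Kdr, 0.70 for Flt1, 1.63 for Angpt2, 0.88 for Dll4 and 0.62 for Pdgfb. Against the median of gene ratios, Pdgfb turned in endothelial-like cells (-0.038), where Kdr was 0.28, Flt1 0.52 and Angpt2 0.32, and the values were -0.76 for Vegfa in cancer-like cells, -0.41 for Vegfa in macrophage-like cells and -0.40 for Pdgfrb in fibroblast-like cells. Clusters turned Vegfa in macrophage-like cells to 0.011. Leaving out cells with markers of a second lineage turned it to 0.040 and gave -0.55 for Vegfa and 2.70 for Pgf in cancer-like cells and 1.07 for Flt1 in endothelial-like cells. Cancer-like cells without Mki67 or Top2a UMIs, an alternative chosen after seeing the data, gave -0.45 for Vegfa and 3.24 for Pgf.

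Every genotype difference rests on 1 library of 4 pooled mice, so no alternative stands in for replicates. No paired analysis was possible because each genotype has 1 library and no test was run. Depth limits the rarer genes most, since Flt4 had 182 UMIs, Dll4 319 and Tek 467 in all, and the 14 mural-like and 71 endothelial-like WT cells leave wide intervals. UMIs of cancer markers in other lineages were more frequent in TSK, and doublets and free RNA were not separated from expression.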
